A study of Mus musculus with 6 samples.

Results

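The genes described here encode the constitutive proteasome. They were taken by symbol from the mouse genes counted in 2 mammary tumour cell lines: all protein-coding genes named Psma, Psmb, Psmc or Psmd with a number and the genes Psme1 to Psme4, without the inducible catalytic subunits Psmb8, Psmb9 and Psmb10. The rule gave 40 of the 52636 genes in the table and used no measured value. J110 cells were derived from mice carrying an AIB1 cDNA (AIB1 is the coactivator Ncoa3) under the MMTV promoter, which is active in mammary epithelium, and SSM3 cells from mammary tumours of 129SvEv mice. Each line was sequenced as 3 biological replicates of untreated cultured cells. Both lines had been proposed as estrogen receptor-positive models, and the authors concluded that only SSM3 was definitively one. SSM3 cells were grown with more serum, with added transferrin and mercaptoethanol and in more CO2 than J110 cells, so that line, mouse of origin and culture cannot be told apart. Each group stands for 1 cell line, and the ages of the mice of origin are not given in the sources used here.

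The proteasome degrades proteins that carry ubiquitin chains. Its 20S core is a barrel of 4 stacked rings: the outer alpha rings form the gate and the inner beta rings hold the catalytic sites, supplied by Psmb5 (chymotrypsin-like), Psmb6 (caspase-like) and Psmb7 (trypsin-like). The 19S particle caps the barrel. Its base holds 6 ATPases that unfold substrates and scaffold and receptor subunits that bind ubiquitin, and its lid holds Psmd14, the enzyme that removes the ubiquitin chain. Psme1 and Psme2 form the PA28 alpha-beta activator, Psme3 forms PA28 gamma in the nucleus and Psme4 is PA200; these can replace the 19S cap. Interferons induce Psmb8, Psmb9 and Psmb10, which take the places of Psmb5, Psmb6 and Psmb7 in newly made particles, together with Psme1 and Psme2. The transcription factor NFE2L1 raises proteasome genes together when proteasome activity is low, through antioxidant response elements in their promoters.

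Because proteasome genes are known for shared regulation, the bases just before the start sites of members with large differences in each direction are shown. They were read from RefSeq promoter windows of GRCm38.p6 (the genome of the mm10 build), 5′ to 3′ on the strand of the gene, and each run but the last ends at the base before the RefSeq start. Capitals mark the antioxidant response element core TGACNNNGC in Psmb5 and Psmb6, the gamma-activated site TTCNNNGAA in Psmb8, and the interferon-stimulated response element (GAAA, any 2 bases, GAAA), here on the opposite strand, in Psme1, whose run begins at its start. Psmb5, Psmb6 and Psmc5 were more than 2-fold higher in SSM3, Psma4 and Psmd6 were lower, and Psmb8 is shown as the inducible counterpart of Psmb5. Psmb3 and Psmd4, which differed by more than Psmb5 and Psmb6, had no antioxidant response element core in their windows and are not shown.
Psmb5, chr14:54617996-54618115, minus strand: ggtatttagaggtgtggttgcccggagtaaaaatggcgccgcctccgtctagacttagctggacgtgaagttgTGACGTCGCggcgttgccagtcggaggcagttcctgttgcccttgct
Psmb6, chr11:70525237-70525356, plus strand: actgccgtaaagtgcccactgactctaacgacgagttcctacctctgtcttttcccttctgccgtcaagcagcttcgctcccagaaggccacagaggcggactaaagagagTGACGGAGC
Psmc5, chr11:106256065-106256184, plus strand: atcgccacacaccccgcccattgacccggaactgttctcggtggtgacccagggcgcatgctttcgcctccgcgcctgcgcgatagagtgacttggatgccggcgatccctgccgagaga
Psma4, chr9:54950739-54950858, plus strand: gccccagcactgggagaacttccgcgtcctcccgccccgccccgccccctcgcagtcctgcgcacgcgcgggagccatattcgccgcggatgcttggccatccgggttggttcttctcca
Psmd6, chr14:14120946-14121065, minus strand: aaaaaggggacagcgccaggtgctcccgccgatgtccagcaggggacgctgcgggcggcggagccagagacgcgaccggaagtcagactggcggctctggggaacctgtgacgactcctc
Psmb8, chr17:34198075-34198194, plus strand: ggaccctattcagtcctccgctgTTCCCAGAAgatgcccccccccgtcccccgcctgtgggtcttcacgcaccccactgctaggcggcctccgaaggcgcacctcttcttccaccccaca
Psme1, chr14:55578494-55578523, plus strand: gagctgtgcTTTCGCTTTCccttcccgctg

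Promoter windows of 300 bases, 250 before and 50 after the start, were matched by symbol for 33 of the 40 members, and each motif was searched on both strands. A gene counted as a match if any of its windows held the motif, while shares of all promoters are over single windows. The antioxidant response element core was found in 6 of the 33 genes (18.2%), namely Psmb5, Psmb6, Psmc6, Psmd9, Psmd12 and Psme4, against 12.4% of 32544 mouse promoters. It was in 2 of 5 beta ring genes and in 0 of 7 alpha ring genes with a window. Psmb1, Psmb2, Psmb7 and Psma8 had no window, so these counts do not compare whole rings. Of members with a window, 2 of 15 that were higher in SSM3 and 1 of 11 that were lower held it. The letters CCAAT were in 13 of the 33 genes (39.4%), against 37.4% of all promoters, and 5 of those 13 were among the 7 alpha ring genes. The interferon-stimulated response element was in Psmb3, Psmd4, Psmd9 and Psme1, 12.1% of the 33 genes against 3.45% of all promoters, and the gamma-activated site was in Psmd2, 3.03% against 8.33%. A match says only that these letters lie in the window.

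RNA was measured with QuantSeq, which gives a read near the 3′ end of each polyadenylated transcript, so that counts do not grow with transcript length. Total counts were 5209740 to 5416305 in J110 and 4200785 to 4792941 in SSM3. Levels are given as CPM, counts scaled to library size after TMM normalisation, a factor for library composition that was 0.920 to 0.958 in J110 and 1.05 to 1.07 in SSM3. Genes of a ribosomal RNA locus took 15.1% to 17.2% of the counts in J110 and 0.779% to 1.27% in SSM3. Over the 12284 genes tested, log2 fold changes had a median of -0.014 with TMM and of 0.16 with total counts alone, a shift that moves every gene. Epcam, a surface protein of epithelial cells, had 1 to 7 counts in J110 and 2376 to 2412 in SSM3, while the mesenchymal gene Vim had 25068 to 26136 counts in J110 and 14 to 87 in SSM3. Krt8 and Krt18, keratins of simple epithelia, were high in both lines. Ncoa3 counts were not higher in J110 (102 to 110, against 181 to 199 in SSM3). The 3′ end of the transgene is not described, so this gene does not check the labels.

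Of the 40 members, 38 passed the filter on low counts and were tested with edgeR's quasi-likelihood test, in which an adjusted p (Benjamini-Hochberg over all 12284 genes) below 0.05 is a call. In SSM3, 20 members were higher and 11 lower than in J110, and 7 were not called. The lines differed widely: 77.9% of all genes tested were called, 38.6% higher and 39.2% lower, so the 81.6% of members called is near the background. The members' median log2 fold change was 0.38, and their range, -1.12 in Psmd6 to 1.68 in Psme2, was narrow beside that of all genes (SD 0.76 against 2.73). With total counts alone, 23 members were higher and 6 lower, and the calls over all genes moved the same way, with 5373 higher and 4140 lower (56.5% of calls higher, against 49.6% with TMM). Without the members that share exons with another gene or have a named copy, 12 of 26 were higher and 8 lower, with a median of 0.18, and without those that have any near-identical copy in the genome as well, 10 of 22 were higher and 6 lower. CPM values of the lines did not overlap in 32 of the 38 members (84.2%), against 79.6% of all genes tested. A difference of at least 2-fold and called was found in 12 members, against 43.7% of all genes. When the test asked for more than a 1.5-fold difference (glmTreat in edgeR), 14 members were higher and 3 lower, against 51.6% of all genes called, 25.4% higher and 26.2% lower.

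**Figure D1:**
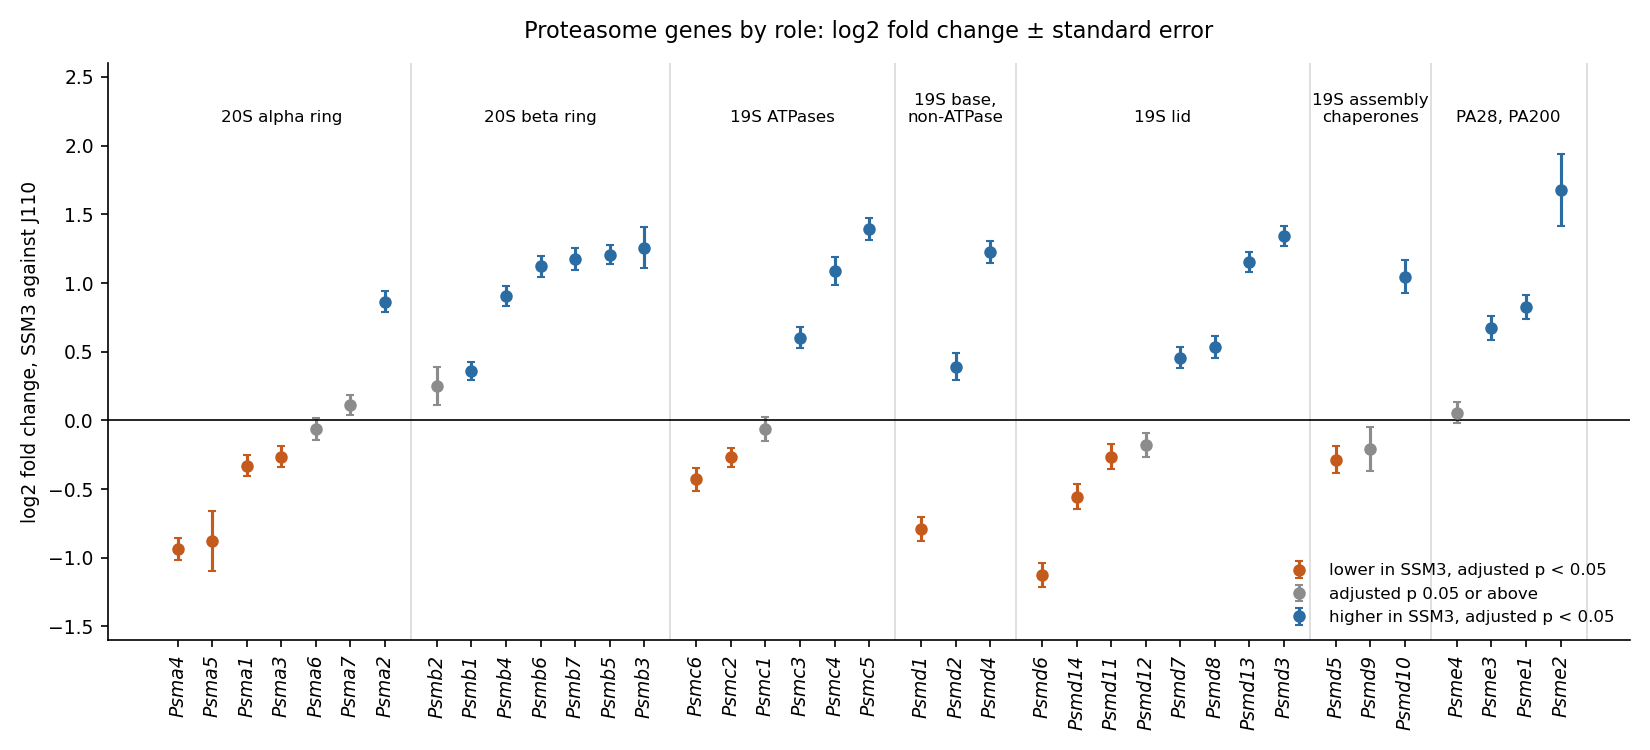
Log2 fold change of each of the 38 tested proteasome genes (y axis, SSM3 against J110, with positive values higher in SSM3), grouped by role on the x axis, with bars of ± 1 standard error from the edgeR fit (3 libraries a line) and colours for the call (blue higher in SSM3, orange lower, grey not called). The beta ring genes lie between 0.25 and 1.26, and the alpha ring genes between -0.94 and 0.87.

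Members' CPM summed to 6131 ± 78.0 in J110 and to 8242 ± 161 in SSM3 (mean ± SD of 3 libraries), a ratio of 1.34, or 1.52 with total counts alone. Between 0.571% and 0.587% of all counts in J110 and between 0.863% and 0.890% in SSM3 fell on these genes. In RNA from bulk cells, fewer cells of a type and less RNA per cell cannot be told apart. The ratio differed by role: the alpha ring sum was 1.06 times, the beta ring sum 1.90 times, the ATPase sum 1.26 times and the lid sum 1.40 times that in J110. Sums of the other base subunits, the 19S assembly chaperones and the activators were 1.20, 1.23 and 1.36 times those in J110.

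Alpha ring genes were mostly lower or little different in SSM3. Of 8, 7 were tested, of which 1 was higher, 4 were lower and 2 were not called, with a median log2 fold change of -0.26. Psma2, the exception, had 399.6, 339.6 and 352 CPM in J110 and 667, 678 and 643 CPM in SSM3. Every SSM3 library lay above every J110 library, and the level was 1.82-fold higher (log2 fold change 0.87, SE 0.073, edgeR adjusted p = 1.51e-08). Psma4 went the other way, with 220.2, 229 and 262 CPM in J110 and 123, 124 and 124 CPM in SSM3, again without overlap (log2 fold change -0.94, SE 0.082, edgeR adjusted p = 2.16e-08). The log2 fold changes of Psma1, Psma3 and Psma5 were -0.33, -0.26 and -0.88. Psma5 rested in part on 1 library: its CPM was 56.1, 57.6 and 57.8 in J110 and 44.3, 34.2 and 15.5 in SSM3, and without SSM3 replicate 3 the log2 fold change was -0.54. DESeq2 did not call Psma5 (adjusted p = 0.0619).

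Psma6 and Psma7 were not called. Psma6 had 160.2, 149 and 151 CPM in J110 and 143, 141 and 157 CPM in SSM3 (log2 fold change -0.063, SE 0.078, edgeR adjusted p = 0.474). Psma7 had 391, 421 and 439 CPM in J110 and 479, 450.0 and 422 CPM in SSM3 (log2 fold change 0.11, SE 0.073, edgeR adjusted p = 0.175). In both genes the libraries of the lines overlapped. Psma8, the alpha subunit of the testis, had 0 counts in all 6 libraries, and the floor of 3 counts is 0.578 to 0.668 CPM at these depths. Alpha ring directions depended on the scaling: with total counts alone 2 members were higher and 2 lower, and Psma1 and Psma3 lost their calls, under a scaling that raised the share of higher calls over all genes to 56.5%.

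Beta ring genes were higher in SSM3. Of 8, 7 were tested, of which 6 were higher, 0 were lower and 1 was not called, with a median log2 fold change of 1.12. Psmb5 had 149.6, 146 and 158 CPM in J110 and 349.6, 344 and 354 CPM in SSM3. The lines stood far apart beside the spread within each, and the level was 2.31-fold higher (log2 fold change 1.21, SE 0.071, edgeR adjusted p = 1.33e-10). Psmb6 had 132, 125 and 137 CPM in J110 and 288, 270.1 and 298 CPM in SSM3 (log2 fold change 1.12, SE 0.076, edgeR adjusted p = 8.28e-10). Psmb7 had 131, 128 and 126 CPM in J110 and 316, 276 and 277 CPM in SSM3 (log2 fold change 1.18, SE 0.078, edgeR adjusted p = 6.66e-10). All 3 genes of the catalytic sites were thus 2.18 to 2.31 times the J110 level. Psmb7 is uncertain, since 405 bp of its exons lie opposite exons of Nek6, a mitotic kinase, whose log2 fold change was also 1.18, and the strand setting of the counting is not given in the sources used here. Counts of Psmb7 over Nek6 averaged 0.698 ± 0.0194 in J110 against 0.695 ± 0.0248 in SSM3 (± SD of 3 libraries).

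The structural beta subunits showed more spread. Psmb3 had the highest log2 fold change of the ring, 1.26 (SE 0.15, edgeR adjusted p = 1.08e-06), with 127, 105 and 67.0 CPM in J110 and 231, 227 and 259 CPM in SSM3. Its lowest library was J110 replicate 3, without which the log2 fold change was 1.03. Psmb2 was not called, with 41.1, 31.4 and 40.9 CPM in J110 and 53.2, 36.7 and 45 CPM in SSM3, which overlapped (log2 fold change 0.25, SE 0.14, edgeR adjusted p = 0.114). It was called higher without SSM3 replicate 2 and with total counts alone (log2 fold change 0.42, edgeR adjusted p = 0.0116). Psmb1 and Psmb4 were higher, with log2 fold changes of 0.36 and 0.90. Psmb11, the catalytic subunit of the thymus, had 2, 2 and 2 counts in J110 and 0, 0 and 0 in SSM3, at or under the floor of 3 counts in both lines.

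**Figure D2:**
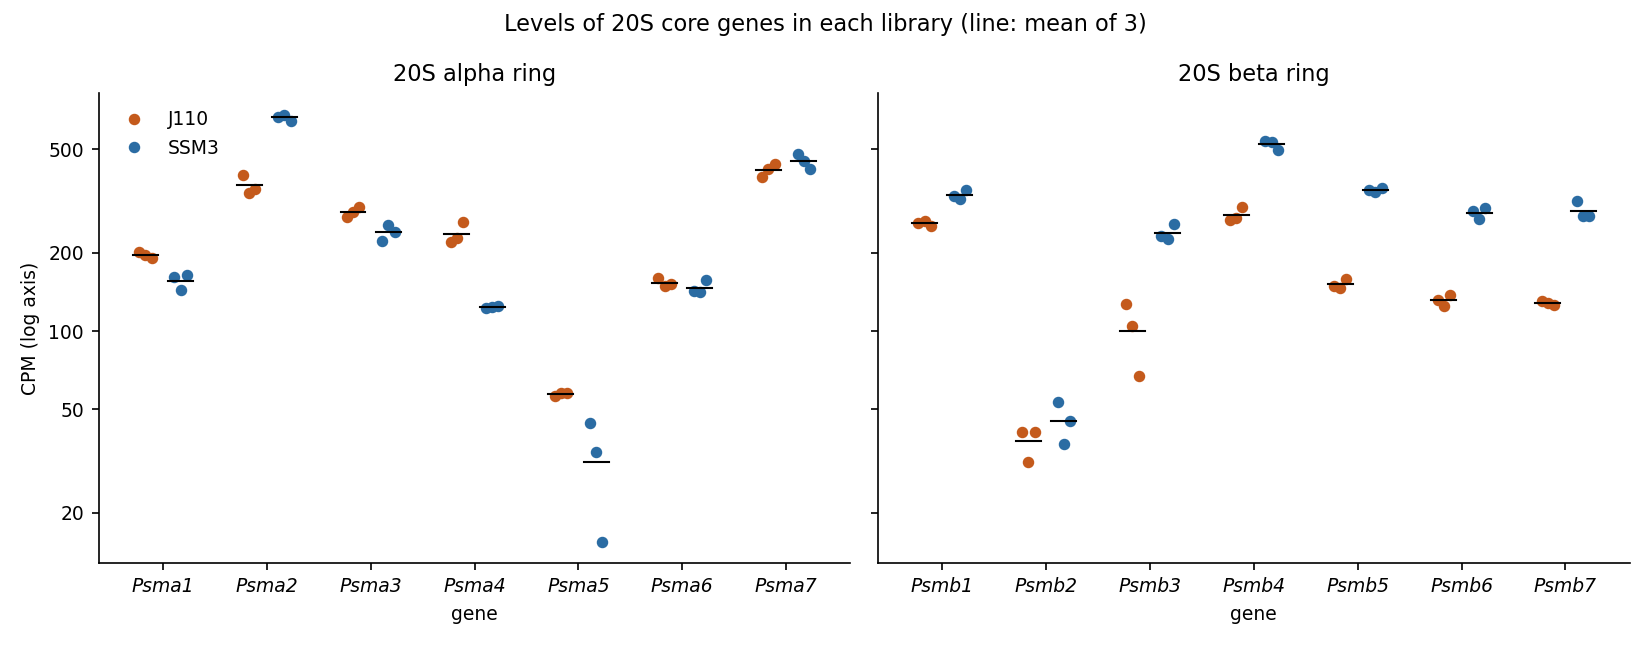
CPM (y axis, log scale) of the 7 tested alpha ring genes (left) and the 7 tested beta ring genes (right) in each of the 3 J110 and 3 SSM3 libraries, with a line at each mean of 3. In the beta ring, SSM3 libraries lie above J110 libraries in all genes but Psmb2, and in the alpha ring in Psma2 alone.

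The ratio of beta to alpha ring counts within a library does not depend on scaling. Summed beta counts over summed alpha counts were 0.651, 0.639 and 0.618 in J110 and 1.15, 1.10 and 1.18 in SSM3, so every SSM3 library lay above every J110 library and the mean was 1.79 times as high. Without Psmb7 it was 1.75 times and without Psma2 2.23 times as high. Restricted to genes that shared no exon with another gene and had no named or near-identical copy (Psmb1, Psmb2 and Psmb4 over Psma1, Psma2, Psma6, Psma7 and Psma8), the J110 ratio was 0.511 ± 0.0151 and the SSM3 ratio 0.636 ± 0.00566 (± SD of 3 libraries), 1.25 times as high. These ratios were formed after the members' values were seen, so they are given with no test. They compare lines and not the number of subunits in a particle, in which the rings hold equal numbers.

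**Figure D3:**
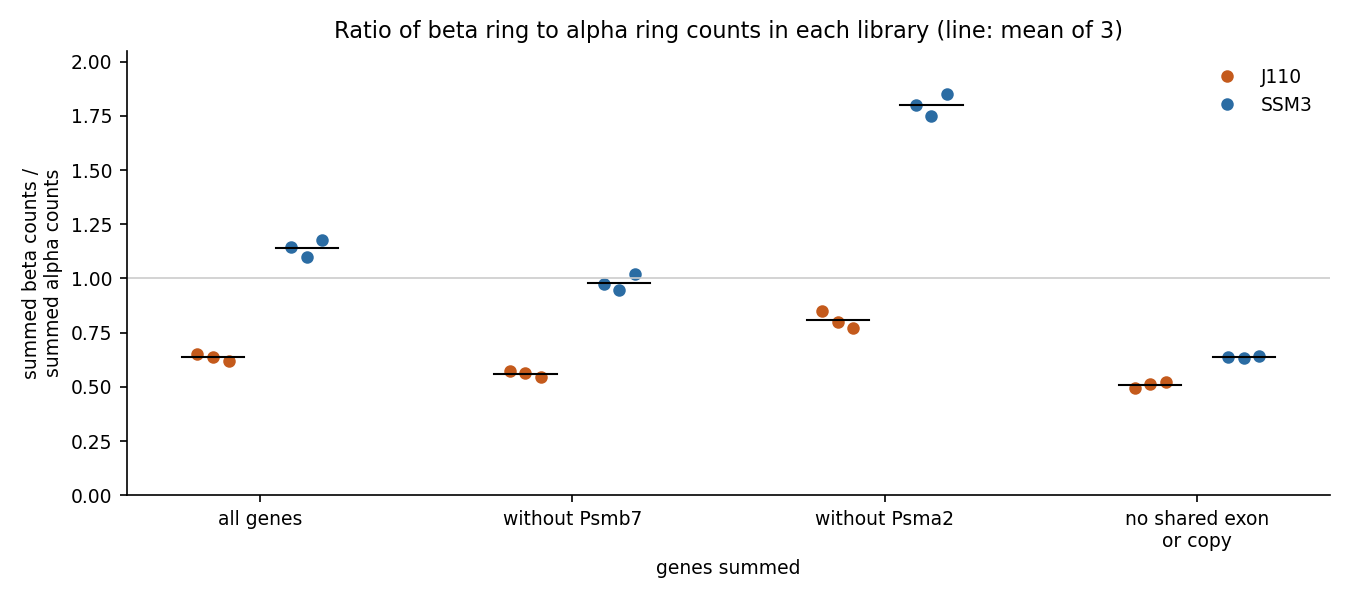
Summed counts of beta ring genes over summed counts of alpha ring genes (y axis, no unit) in each library for 4 choices of genes (x axis), with a line at each mean of 3. SSM3 libraries lie above J110 libraries in all 4, and the gap is narrowest for genes with no shared exon or copy (0.511 against 0.636).

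Among ATPases of the 19S base, 3 were higher, 2 were lower and 1 was not called. Psmc5 had 72.3, 66.7 and 72.2 CPM in J110 and 181, 195 and 178 CPM in SSM3. Its lines did not overlap and it was 2.63-fold higher, the largest difference among the core and 19S genes (log2 fold change 1.39, SE 0.082, edgeR adjusted p = 1.48e-10). Psmc3 and Psmc4 were also higher, with log2 fold changes of 0.60 and 1.09. Psmc6 was lower, with 192, 195 and 182 CPM in J110 and 128, 143 and 151 CPM in SSM3 (log2 fold change -0.43, SE 0.081, edgeR adjusted p = 0.000131). Psmc2 was lower by less (log2 fold change -0.27), a call that total counts alone did not give. Psmc1 was not called, with 134, 116 and 127 CPM in J110 and 116, 116 and 128 CPM in SSM3, which overlapped (log2 fold change -0.063, SE 0.085, edgeR adjusted p = 0.506).

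The other 3 subunits of the base went in both directions. Psmd4, a ubiquitin receptor, had 167, 159 and 167 CPM in J110 and 376, 355 and 421 CPM in SSM3, a 2.34-fold higher level without overlap (log2 fold change 1.23, SE 0.078, edgeR adjusted p = 3.87e-10). Psmd2, a scaffold that docks ubiquitin-binding shuttle proteins, had 190.5, 166 and 138 CPM in J110 and 227, 203 and 219 CPM in SSM3 (log2 fold change 0.39, SE 0.099, edgeR adjusted p = 0.0019). Psmd1, the scaffold that holds the receptor Adrm1, had 307, 331 and 358 CPM in J110 and 217, 174 and 185 CPM in SSM3. It was 1.73-fold higher in J110, where all 3 libraries lay above those of SSM3 (log2 fold change -0.79, SE 0.089, edgeR adjusted p = 4.89e-07). Psmd1 shares exon sequence with Gm21972 on the same strand, which had 59 to 121 counts a library, and that share of its reads is uncertain.

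The lid held the widest range of the core and 19S groups. Of its 8 genes, 4 were higher, 3 were lower and 1 was not called, with a median log2 fold change of 0.14. Psmd3, a lid scaffold subunit, had 217, 223 and 212 CPM in J110 and 551, 506 and 596 CPM in SSM3, 2.54-fold higher (log2 fold change 1.34, SE 0.075, edgeR adjusted p = 6.88e-11). Psmd6, another scaffold subunit, had 108, 119.9 and 122 CPM in J110 and 54.1, 54.4 and 51.9 CPM in SSM3. It was 2.18-fold higher in J110 without overlap, the largest difference in that direction among the members (log2 fold change -1.12, SE 0.087, edgeR adjusted p = 4.98e-09). With a log2 fold change of -0.56, Psmd14, the deubiquitinase, was lower in SSM3 at 125 ± 16.0 CPM against 184 ± 6.14 CPM (± SD of 3 libraries), while its binding partner Psmd7 was higher, at 349 ± 30.6 CPM against 254 ± 7.73 CPM, a log2 fold change of 0.45.

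Psmd13 and Psmd8 were higher, with log2 fold changes of 1.15 and 0.53, and Psmd11 was lower at -0.26, a call that total counts alone did not give. Psmd12 had 162, 163 and 166 CPM in J110 and 162, 127 and 145 CPM in SSM3. All SSM3 libraries lay below those of J110, but the difference was not called (log2 fold change -0.18, SE 0.089, edgeR adjusted p = 0.0742). Sem1, a small lid subunit whose symbol falls outside the rule, had 1200 to 1531 counts in J110 and 413 to 581 in SSM3 (log2 fold change -1.38, edgeR adjusted p = 2.35e-08), and was named after its values were seen.

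The 3 chaperones that build the 19S base, which carry Psmd symbols but leave the finished particle, differed among themselves. Psmd10, also called gankyrin, had 33.2, 47.1 and 40.5 CPM in J110 and 72.6, 86.9 and 89.5 CPM in SSM3, 2.07-fold higher without overlap (log2 fold change 1.05, SE 0.12, edgeR adjusted p = 6.7e-07). Psmd5 had 62.5, 59.7 and 55.7 CPM in J110 and 51.9, 50.8 and 43.6 CPM in SSM3 (log2 fold change -0.29, SE 0.099, edgeR adjusted p = 0.0151). This call was lost under DESeq2, with total counts alone, and without J110 replicate 1 or SSM3 replicate 3, where the edgeR adjusted p was 0.0526 and 0.0798. Psmd9 had 20.2, 24.1 and 31.5 CPM in J110 and 20.7, 21.2 and 23.5 CPM in SSM3, which overlapped (log2 fold change -0.21, SE 0.16, edgeR adjusted p = 0.248).

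Of the activators, the PA28 genes were higher in SSM3 and Psme4 was not called. Psme1 had 49.2, 49.8 and 53.2 CPM in J110 and 86.4, 90.5 and 92.5 CPM in SSM3, 1.77-fold higher (log2 fold change 0.82, SE 0.086, edgeR adjusted p = 2.08e-07). Psme2 had few counts, 14, 21 and 20 in J110 and 69, 47 and 51 in SSM3, or 3.68 ± 0.846 CPM against 11.8 ± 3.06 CPM (± SD of 3 libraries). Its libraries did not overlap, and its log2 fold change of 1.68 (SE 0.26, edgeR adjusted p = 2.16e-05) was the highest of the members. The last 300 bases of Psme2 are 99.0% identical to those of Psme2b, on which 0 to 2 counts fell, and its level is uncertain.

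Psme3 had 79.4, 77.9 and 68.7 CPM in J110 and 115, 119.6 and 126 CPM in SSM3, 1.59-fold higher without overlap (log2 fold change 0.67, SE 0.087, edgeR adjusted p = 2.75e-06). Psme4 had 141, 145 and 139 CPM in J110 and 146, 157 and 140.1 CPM in SSM3, which overlapped (log2 fold change 0.056, SE 0.077, edgeR adjusted p = 0.516).

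The inducible catalytic subunits, which are not members, differed far more between the lines than the subunits they replace. Reads on Psmb8 numbered 5, 4 and 7 in the J110 libraries and 1033, 890 and 1057 in SSM3 (log2 fold change 7.59, SE 0.17, edgeR adjusted p = 8.7e-16). Its J110 level was 0.511% of that in SSM3, beside 0.135% for Epcam and 0.251% for Krt19, other genes that were high in SSM3. Psmb9 had counts of 6, 4 and 5 in J110 and of 351, 267 and 121 in SSM3 (log2 fold change 5.69, SE 0.47, edgeR adjusted p = 1.21e-08). The 212 bp of exon that Psmb9 shares with Tap1, on the opposite strand, leave its value uncertain, and its SSM3 libraries spread widely. Psmb10 had counts of 56, 66 and 72 in J110 and of 237, 292 and 331 in SSM3 (log2 fold change 2.22, SE 0.14, edgeR adjusted p = 3.47e-10). All 3 were higher in every SSM3 library.

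Set against its constitutive counterpart, Psmb8 had 0.00702 counts for each count of Psmb5 in J110 and 0.600 in SSM3. The ratio of Psmb9 to Psmb6 was 0.00758 in J110 and 0.187 in SSM3 (0.0807 to 0.271 over the SSM3 libraries). That of Psmb10 to Psmb7 was 0.101 in J110 and 0.210 in SSM3. Psme1 over Psme2 went from 14.3 in J110 to 7.93 in SSM3. The uncertainty given above for the counts of Psmb7, Psmb9 and Psme2 holds for their ratios as well. In each of these 4 ratios the lines did not overlap, and the exact two-sided permutation p was 0.1, also after adjustment, the smallest that 3 libraries against 3 allow. A share of transcripts does not give the share of particles that hold the inducible subunits.

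**Figure D4:**
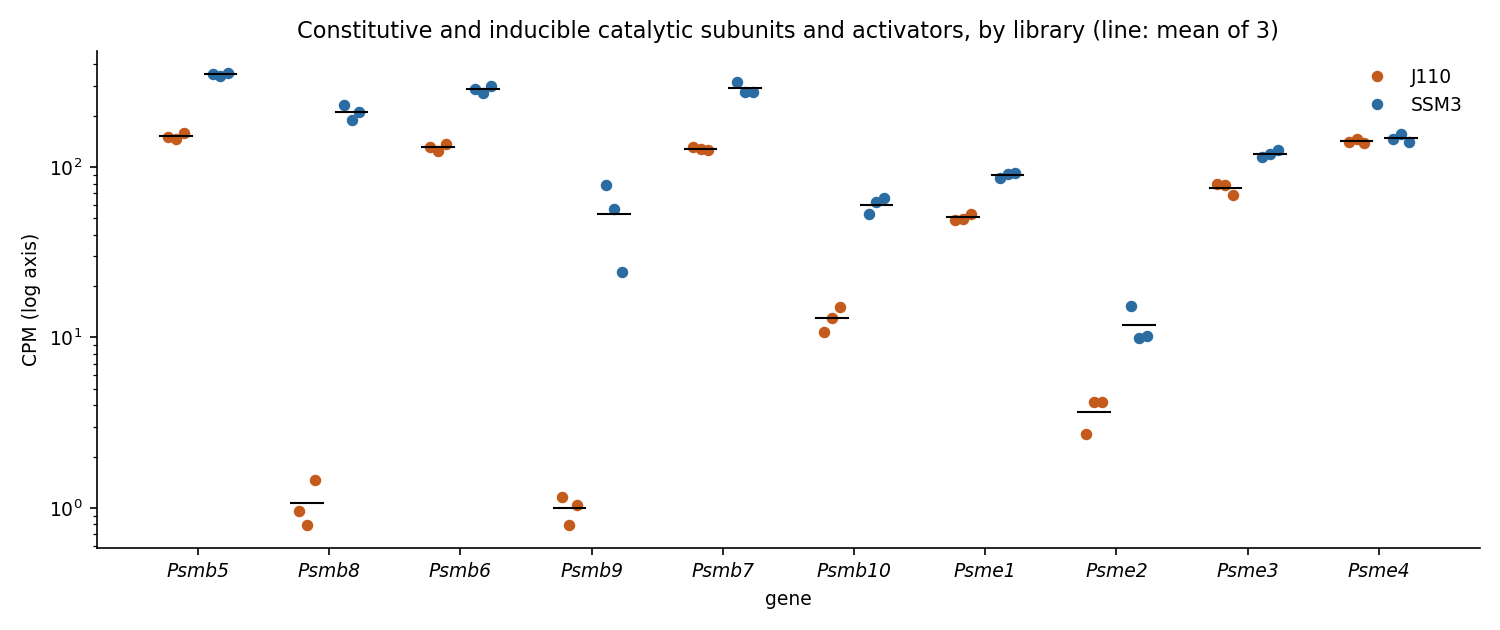
CPM (y axis, log scale) of the constitutive catalytic genes Psmb5, Psmb6 and Psmb7, each beside its inducible counterpart, and of the 4 activator genes, in each of the 3 J110 and 3 SSM3 libraries, with a line at each mean of 3. Psmb8 and Psmb9 lie near 1 CPM in J110, and SSM3 libraries lie above J110 libraries in all genes but Psme4, where they overlap.

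Chaperones that assemble the 20S core were mostly higher in SSM3: of 5 genes, 4 were higher and 1 was lower. Over all genes tested, 38.6% were higher and 39.2% lower. Pomp, which joins the beta ring to the alpha ring in the half-built core and is itself degraded when the core closes, had 324, 299.8 and 309 CPM in J110 and 1320, 1473 and 1465 CPM in SSM3, 4.56-fold higher without overlap (log2 fold change 2.19, SE 0.072, edgeR adjusted p = 8.03e-14). Psmg1, which pairs with Psmg2 to start the alpha ring, had 33.0, 29.9 and 27.3 CPM in J110 and 13.4, 14.0 and 7.76 CPM in SSM3 (log2 fold change -1.37, SE 0.18, edgeR adjusted p = 4.01e-06). Psmg2, named after its values were seen, was higher in SSM3 (log2 fold change 0.40, edgeR adjusted p = 0.00386).

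Genes of the NFE2L1 axis went in both directions. Of 9, 4 were higher, 3 were lower and 2 were not called. The share called, 77.8%, was near the 77.9% of all genes tested. Nfe2l1 had 102, 99.1 and 82.4 CPM in J110 and 61.2, 44.8 and 49.3 CPM in SSM3, 1.83-fold higher in J110 (log2 fold change -0.87, SE 0.12, edgeR adjusted p = 3.63e-06). The related factor Nfe2l2 had 287, 309 and 283 CPM in J110 and 104, 90.9 and 75.6 CPM in SSM3 (log2 fold change -1.70, SE 0.099, edgeR adjusted p = 1.28e-10). Both transcripts were thus lower in the line with the higher beta ring levels, and the activity of the proteins was not measured. Ufd1, a partner of the unfoldase Vcp, had the largest rise of the list (log2 fold change 0.62, SE 0.0975, edgeR adjusted p = 2.1e-05), and part of its exons lies opposite those of Cdc45.

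Other proteasome subunits and proteins that bind the particle gave 6 higher, 5 lower and 2 not called of 13. That is 84.6% called, against 77.9% of all genes tested. The lowest of the 13 was Ubqln2, a shuttle that carries ubiquitinated proteins to the particle (log2 fold change -1.72, SE 0.24, edgeR adjusted p = 6.38e-06). In the list of ubiquitin genes and activating enzymes, 3 of 6 were higher and 2 lower (83.3% called). The list ran from Uba6, an activating enzyme (log2 fold change -1.34, edgeR adjusted p = 8.3e-10), to the polyubiquitin gene Ubb (log2 fold change 1.33, edgeR adjusted p = 2.31e-05).

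**Figure D5:**
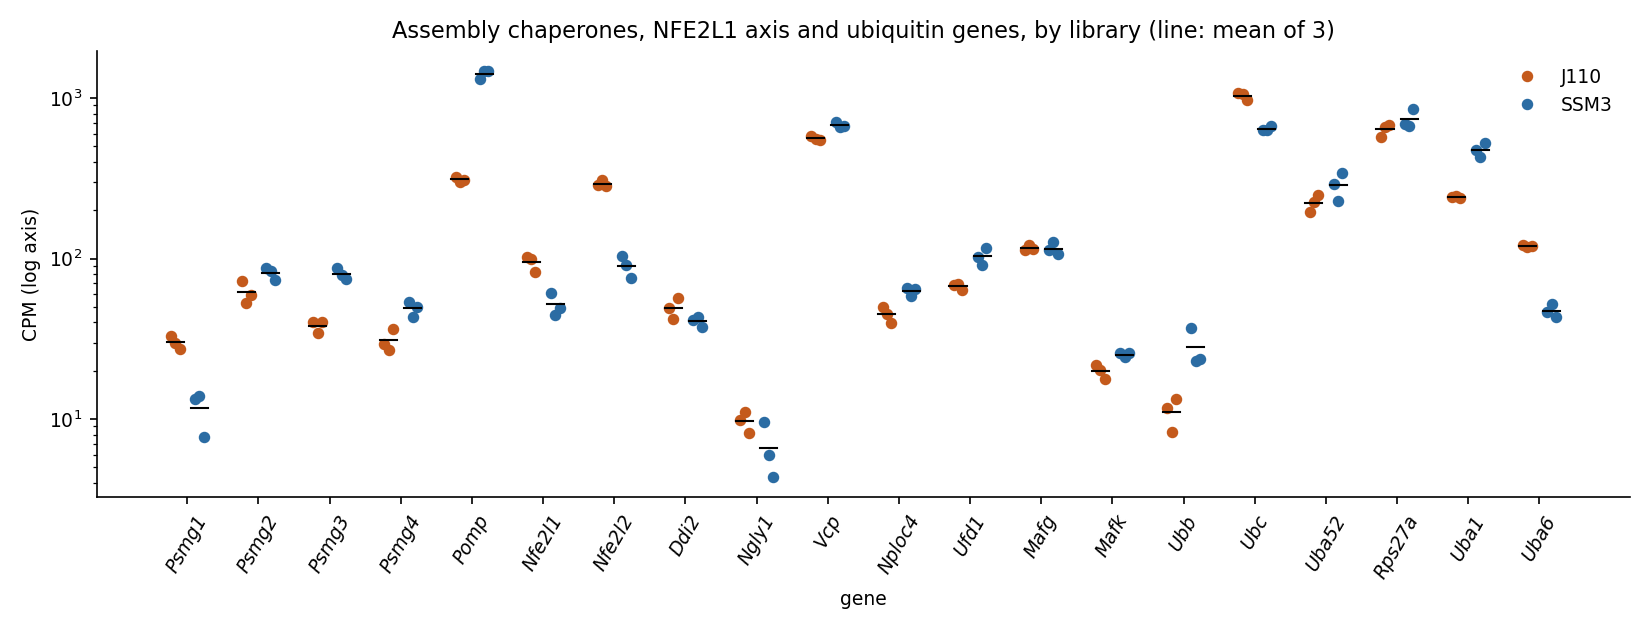
CPM (y axis, log scale) of the 20S assembly chaperones, the genes of the NFE2L1 axis and the ubiquitin genes in each of the 3 J110 and 3 SSM3 libraries, with a line at each mean of 3. Pomp lies at 299.8 to 324 CPM in J110 and 1320 to 1473 CPM in SSM3, while Nfe2l1 and Nfe2l2 lie lower in SSM3.

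Among proliferation genes, set beside the members because dividing cells use the proteasome at each mitosis, 4 of 8 were higher and 2 lower. That is 75% called, against 77.9% of all genes tested. The log2 fold changes of these 8 genes ran from -0.87 in Pcna to 0.44 in Ccnb1, and their part in the members' differences was not tested. Markers of leukocytes, endothelial cells and fibroblasts summed to 18.8 to 25.8 CPM in J110 and 1.59 to 3.82 CPM in SSM3. Of these 12 genes, 1 passed the filter, the macrophage marker Cd68 (log2 fold change -3.70, SE 0.29, edgeR adjusted p = 5.19e-09), which was lower in SSM3. The endothelial receptor gene Kdr had 8, 11 and 6 counts in J110 and 0 in every SSM3 library, and the collagen gene Col1a1 had 5, 6 and 5 counts in J110 and 0 in every SSM3 library. The other 9 genes had 0 to 9 counts in every library, with Tie1, Col1a2 and Lum at 0 throughout and the leukocyte gene Ptprc at 0 to 2. The part of these markers in the members' differences was not tested.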

How the data were processed

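RNA from 3 biological replicates each of J110 and SSM3 cells was made into QuantSeq 3′ libraries and sequenced from a single end. Reads were trimmed by the authors (cutadapt 2.1), mapped to mm10 (HISAT2 2.0.4) and counted per gene (featureCounts, Subread 2.0.0). The authors deposited raw counts for 52636 genes, with no normalisation, and the strand setting is not given in the sources used here. Gene identifiers were matched to GENCODE annotation of GRCm38 (99.7%).

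Low counts were removed by filterByExpr, TMM gave the scaling, and the quasi-likelihood test was that of edgeR 4.0.16 (R 4.3.3), cell line being the term of the model. The standard error was the log2 fold change divided by the square root of the F statistic. Tried on simulated data for 12284 genes, the test recovered 66.3% of 98 genes changed 1.5-fold and 99% of 97 changed 3-fold, and 7.47% of its calls were wrong. The simulation changed far fewer genes than the 77.9% called here, so its rates need not hold for these data. Alternatives used limma 3.58.1, DESeq2 1.42.0, other scalings, filters and thresholds, the replicate block, and leaving out libraries. Replicates differed by more than sampling noise (chi-square per degree of freedom 2.29 to 6.01), and whether they came from separate cultures is not stated beyond the word biological, so p-values measure only the spread between these libraries. Shared exons were found with bedtools 2.31.1 and copies (at least 95% identity over 75 bp of the last 300 bases) with blastn 2.17.0. Intervals and floors cover counting error only.

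The members, gene lists and tests were chosen with earlier results of these data known. Values per library are given, in each role, for the called genes with the largest rise and fall, the gene nearest 0, genes not called or at the floor, the activators, the catalytic subunits, Nfe2l1 and, in other lists, the called extremes. Psma5, Sem1 and Psmg2 were added later. The chaperone Paaf1 was not analysed here, and some results of named genes are not reported here.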

Additional observations from a re-analysis of the deposited data

How the results depend on the processing

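The members' 20 higher and 11 lower calls and median log2 fold change of 0.38 were compared over 18 alternatives. With total counts alone, 6 were lower and the median was 0.55, and the values of Psma6 and Psmc1, called in neither fit, turned to 0.11 and 0.11. Beyond a 1.5-fold difference (glmTreat), 3 were lower. Without members that share exons or have a named copy, 12 were higher and the median was 0.18. With all near-identical copies also left out, a choice made after seeing the data, 10 were higher, 6 were lower and the median was 0.18. Fewer genes were tested in the last 2. Leaving out each library in turn gave medians from 0.32 to 0.42. DESeq2 called 20 higher and 9 lower, without Psma5 and Psmd5. Over the named genes, 612 values in alternatives kept their direction and side of the threshold, 9 lost a call, 5 gained a call and 2 turned direction.

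With the replicate block, 20 were higher and 11 lower, and the median was 0.38. Same-numbered libraries correlated weakly, by 0.012, 0.015 and 0.027, and the other pairs of a J110 and an SSM3 library by -0.021 to 0.0076. Each J110 library correlated best with its own number. Whether same-numbered libraries shared a batch is not given in the sources used here. Depth limits genes below the floor of 3 counts (0.578 to 0.668 CPM), here Psma8 and Psmb11, whose differences were not detectable.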
